A study of Mus musculus with 12 samples.

Results

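Transcripts of 8 effector cytokine genes (*Il21*, *Il10*, *Il2*, *Tnf*, *Csf1*, *Csf2*, *Il3*, and *Lif*) were followed in CD4+ YFP(FOXP3)- T cells. The genes were chosen by name, with earlier results of these data known. All 8 were found among the 26608 genes counted in each library. RNA sequencing was carried out on 12 libraries, each from 1 mouse 14 weeks old, with 4 mice per group (WT, DKO-moderate, DKO-severe). The cells were sorted from spleen pooled with cervical and inguinal lymph nodes. WT mice were Foxp3Cre WT animals, which carry the Cre recombinase fused to YFP under control of *Foxp3* but have intact *Tet2* and *Tet3*. DKO-moderate and DKO-severe mice were Foxp3-Cre Tet2/3 fl/fl animals, in which both genes are deleted in cells that express, or once expressed, FOXP3. Both DKO groups had the same genotype, and the study divided them by the number of leukocytes in spleen and lymph nodes, so the groups differ in severity of disease by definition. All 3 groups carried the Cre allele. The YFP- gate takes conventional CD4+ T cells together with cells that have lost FOXP3, and the bulk libraries do not separate the 2 kinds.

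Cytokines are secreted proteins through which T cells instruct other cells. IL-21 is produced by follicular helper and Th17 cells and acts on B cells, CSF1 and CSF2 sustain macrophages and myeloid cells, LIF belongs to the IL-6 family, and IL-10 restrains inflammation. IL-2 is the growth factor of activated T cells and of Treg cells, TNF is a broad inflammatory mediator, and IL-3 acts on basophils, mast cells, and their progenitors. In resting T cells most of these genes are nearly silent and are switched on after stimulation through the T-cell receptor. Many of their mRNAs are short-lived because proteins such as tristetraprolin (encoded by *Zfp36*) bind them.

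Reads on genes ranged from 29254260 to 42133536 per library, and levels are given as CPM, reads scaled to a common library total, after TMM scaling. A count of 3 in a library corresponds to 0.0714 to 0.0973 CPM. The 7 matched genes of the CD4 T cell list summed to 3753 to 4886 CPM in every library, so the label fits its markers. *Foxp3* itself was at 0.13 to 3.1 CPM in all libraries. Within this low range it fell in DKO-severe against WT by 2.10 on the log2 scale (SE 0.68, edgeR adjusted p = 0.0205). *Tet3* fell in DKO-severe against WT by 1.03 on the log2 scale (SE 0.19, edgeR adjusted p = 0.000859), whereas *Tet2* spanned 43.3 to 62.2 CPM in WT and 56.7 to 65.8 CPM in DKO-severe libraries and did not pass the test (edgeR adjusted p = 0.234). DKO-severe libraries 1 and 2 stood apart. Their 12 neutrophil genes summed to 2303 and 862 CPM, against 27.4 to 45.5 CPM in DKO-severe 3 and 4 and 9.8 to 36.1 CPM in the other 2 groups. B cell genes were at 6.81 to 15.2 CPM in 3 WT libraries, 212 CPM in WT 3, 21.5 to 47.5 CPM in DKO-moderate, and 70.4 to 383 CPM in DKO-severe libraries.

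The genes lie on 4 chromosomes of the mm10 assembly (GRCm38). *Il2* (chr3:37120523-37125959, minus strand) and *Il21* (chr3:37222759-37232636, minus strand) are neighbours separated by 96.8 kb. *Csf1* is on the same chromosome (chr3:107741048-107760469, minus strand), far from this pair. *Csf2* (chr11:54247271-54249667) and *Il3* (chr11:54265303-54267277), both on the minus strand, are 15.6 kb apart, and *Lif* (chr11:4257557-4272514, plus strand) is 16.5 kb from *Osm*, another member of the IL-6 family. *Tnf* (chr17:35199381-35202007, minus strand) sits between the lymphotoxin genes *Lta* and *Ltb*, and *Il10* is at chr1:131019845-131024974 on the plus strand. The 250 bases before the start site are shown for the 3 genes with the largest changes, *Il21*, *Csf1*, and *Lif*, and for *Il2*, the neighbour of *Il21*, so that members which moved far and a member which moved little can be read side by side. RefSeq sequences (GRCm38.p6) were found for 7 of the 8 genes, all but *Il10*. Their start sites matched those of GENCODE for *Il21* and *Csf1* and differed by 5 bases for *Il2* and 11 bases for *Lif*. Capitals mark GGAAA, the core bound by NFAT and ETS factors, TGANTCA, the element bound by AP-1, and TATAAA, each searched on both strands, so that GGAAA on the other strand reads TTTCC.
Il21 (chr3:37232637-37232886, minus strand): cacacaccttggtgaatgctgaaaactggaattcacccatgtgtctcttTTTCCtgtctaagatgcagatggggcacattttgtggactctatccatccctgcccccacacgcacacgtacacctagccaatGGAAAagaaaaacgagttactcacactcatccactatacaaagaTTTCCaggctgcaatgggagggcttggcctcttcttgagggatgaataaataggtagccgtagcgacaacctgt
Csf1 (chr3:107760470-107760719, minus strand): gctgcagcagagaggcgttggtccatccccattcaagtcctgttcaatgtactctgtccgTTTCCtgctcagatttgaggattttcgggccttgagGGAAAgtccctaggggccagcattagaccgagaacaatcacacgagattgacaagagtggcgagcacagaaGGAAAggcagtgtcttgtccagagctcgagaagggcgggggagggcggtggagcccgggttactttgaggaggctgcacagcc
Lif (chr11:4257318-4257567, plus strand): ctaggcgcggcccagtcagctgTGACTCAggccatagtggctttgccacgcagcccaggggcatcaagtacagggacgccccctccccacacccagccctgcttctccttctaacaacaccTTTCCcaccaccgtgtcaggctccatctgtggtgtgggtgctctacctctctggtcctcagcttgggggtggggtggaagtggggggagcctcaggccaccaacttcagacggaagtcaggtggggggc
Il2 (chr3:37125955-37126204, minus strand): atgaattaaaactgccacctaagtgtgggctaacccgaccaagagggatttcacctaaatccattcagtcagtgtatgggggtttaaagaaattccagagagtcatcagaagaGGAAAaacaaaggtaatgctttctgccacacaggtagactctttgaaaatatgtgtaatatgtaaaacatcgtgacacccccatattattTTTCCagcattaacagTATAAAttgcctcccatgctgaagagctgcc
*Il21* and *Csf1* each held 3 copies of GGAAA, *Il2* held 2, and *Lif* held 1. At least 1 copy occurred in 55.6% of all 32851 promoter windows of the same length, and 3 or more in 6.39% of them. TGANTCA was found once, in *Lif*, against 6.75% of windows, and TATAAA once, in *Il2*, against 12.4% of windows. The number of CG dinucleotides, the sites at which TET proteins oxidize methylated cytosine, was 5 in *Il21*, 10 in *Csf1*, 6 in *Lif*, and 2 in *Il2*, against a median of 6 over all windows. These matches describe the letters only, and none of the motifs separated the members that rose from *Tnf*, whose window also held 3 copies of GGAAA, 1 TATAAA, and 10 CG.

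*Il21*, *Csf1*, and *Lif* rose most from low levels in WT, as the plot of levels by library shows. WT 1 to 4 held 4.17, 5.1, 7.33, and 16.6 CPM of *Il21*, DKO-moderate 1 to 4 held 57.5, 232, 114, and 174 CPM, and DKO-severe 1 to 4 held 227, 266, 297, and 325 CPM. Every DKO library lay above every WT library, and the DKO-moderate libraries were the most scattered. Group means of *Il21* were 8.31 ± 5.71, 145 ± 75.6, and 279 ± 42.1 CPM in the same order of groups (SD, n = 4 each). The log2 fold change was 4.12 (SE 0.50, edgeR adjusted p = 0.000347) in DKO-moderate and 5.06 (SE 0.52, edgeR adjusted p = 1.63e-05) in DKO-severe against WT.

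**Figure D1:**
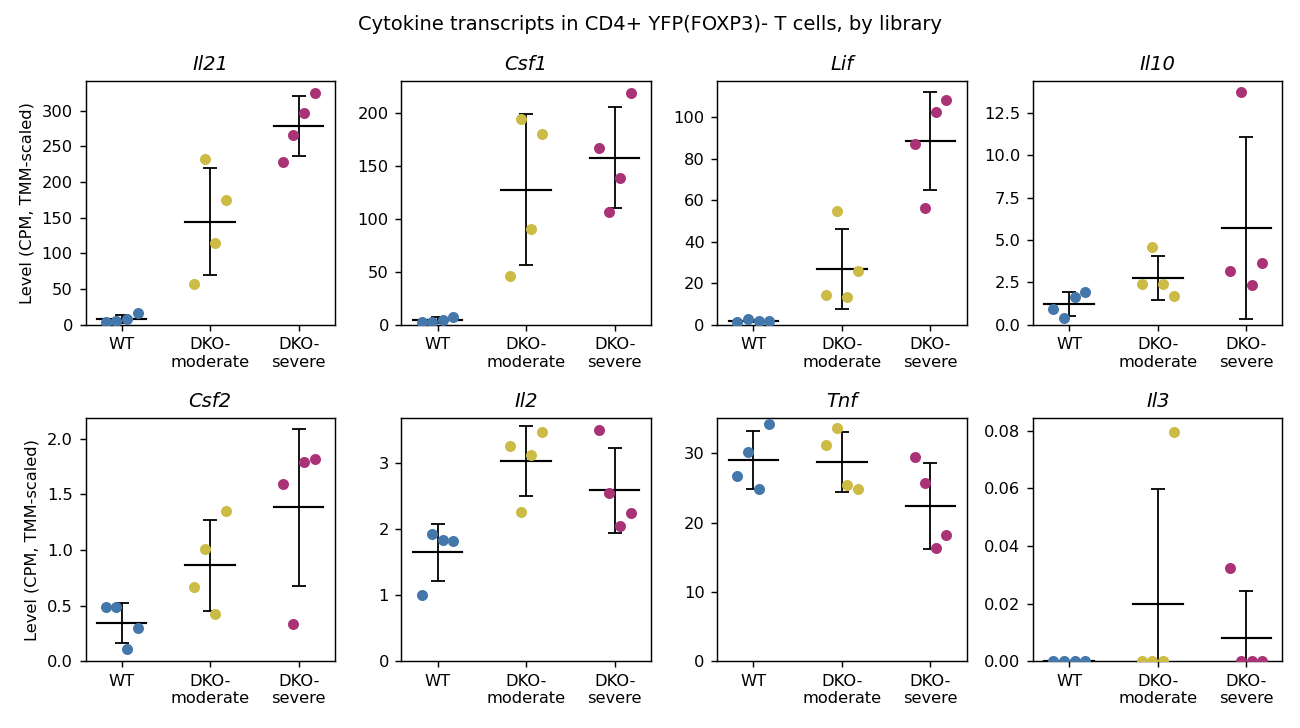
Level of each of the 8 genes (CPM, TMM-scaled, linear axis from 0) in the 4 libraries of each group, ordered by replicate number. Lines mark the mean and error bars the SD. *Il21*, *Csf1*, and *Lif* lie at 16.6 CPM or below in every WT library and at 13.2 CPM or above in every DKO library, with no overlap within a gene, whereas the *Tnf* values of the 3 groups overlap and *Il3* is at 0 in 10 libraries.

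*Csf1*, the growth factor of macrophages, had 2.47, 2.84, 4.8, and 7.68 CPM in WT 1 to 4, then 45.7, 194, 90.4, and 180 CPM in DKO-moderate 1 to 4, then 166, 106, 139, and 219 CPM in DKO-severe 1 to 4. All 8 DKO libraries were above all WT libraries, but the 2 DKO groups overlapped widely. The log2 fold change was 5.14 in DKO-severe (SE 0.52, edgeR adjusted p = 1.61e-05), and it was 4.83 in DKO-moderate (SE 0.52, edgeR adjusted p = 0.000203). *Lif* stayed between 1.41 and 2.52 CPM in WT mice, reached 14.1, 54.8, 13.2, and 25.8 CPM in DKO-moderate 1 to 4, and 87, 56.2, 103, and 108 CPM in DKO-severe 1 to 4. Unlike *Csf1*, *Lif* showed 3 separate levels, although the lowest DKO-severe library was only just above the highest DKO-moderate library. Its log2 fold change against WT was 3.82 (SE 0.46, edgeR adjusted p = 0.000343) in DKO-moderate and 5.54 (SE 0.49, edgeR adjusted p = 8.27e-06) in DKO-severe, which was 46.6-fold and the largest change of the 7 genes tested.

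In these bulk libraries a change in the number of producing cells and a change in RNA per cell cannot be told apart. Without DKO-severe 1 and 2, the log2 fold change of *Il21* in DKO-severe was 5.25, that of *Csf1* 5.35, and that of *Lif* 5.82. With all libraries they were 5.06, 5.14, and 5.54. Leaving out both was added after the data were seen, and it keeps only DKO-severe 3 and 4 in that group. DKO-severe 3 and 4, with 45.5 and 27.4 CPM of neutrophil genes, held the 2 highest values of *Il21* and of *Lif* in the series. With terms for neutrophil and B cell genes in the model, the values in DKO-severe were 4.99, 4.97, and 5.38, and all 3 passed the test (highest edgeR adjusted p = 0.00202). Mast cell and basophil genes moved with these cytokines within DKO-moderate. The 8 genes of that list summed to 2.95, 29, 3.85, and 34.3 CPM in DKO-moderate 1 to 4, and *Il21* and *Csf1* were highest in the same libraries, 2 and 4. The sum was 0.78 to 3.94 CPM in WT and 41.8, 17.8, 21.2, and 34.2 CPM in DKO-severe 1 to 4, with none of the 8 genes at 0 throughout. DKO-severe 1, with the highest sum, had the lowest *Il21* of its group. DKO-severe 2, with the lowest sum of its group, had the lowest *Csf1* and *Lif* there. Plasma cell genes, at 76.1, 121, 82.5, and 126 CPM in DKO-moderate 1 to 4, and monocyte and macrophage genes, at 89.5, 135, 64.3, and 142 CPM, were highest in libraries 2 and 4 as well. Their sums were 191 to 358 CPM and 137 to 568 CPM in DKO-severe, while WT libraries had 49.2 to 147 CPM and 18 to 244 CPM. DKO-moderate 2 and 4 also had 0.0265 CPM or less of the 4 Y-linked genes, as did WT 2, while DKO-severe 3 had 0.571 CPM and the other 8 libraries 370 to 556 CPM. With a term for Y-linked genes the changes in DKO-moderate were 3.90 for *Il21*, 4.59 for *Csf1*, and 3.43 for *Lif*, all past the test (highest edgeR adjusted p = 0.00111). The part of neutrophils, of mast cells and basophils, of plasma cells, and of monocytes and macrophages in the levels was not tested.

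**Figure D2:**
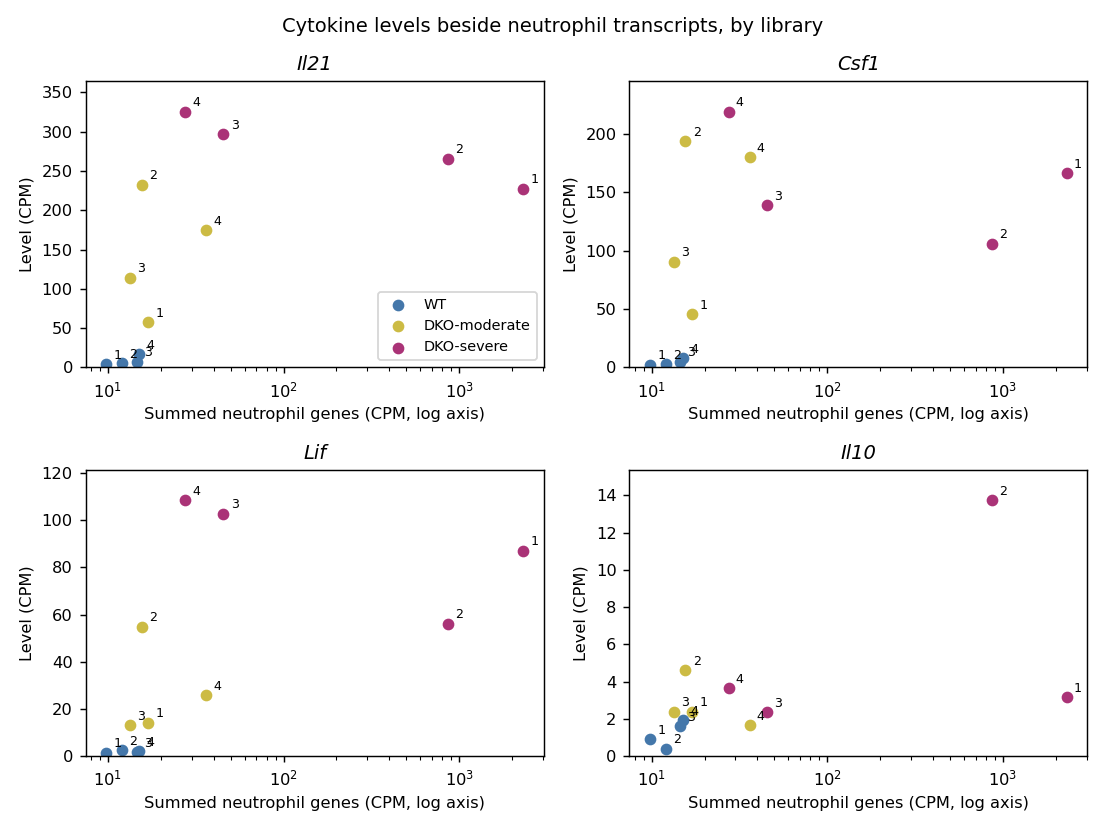
Level of *Il21*, *Csf1*, *Lif*, and *Il10* (CPM, linear axis) against the summed level of 12 neutrophil genes (CPM, log axis) in each of the 12 libraries. Numbers give the replicate within a group. DKO-severe 3 and 4 have 45.5 and 27.4 CPM of neutrophil genes and the highest *Il21* and *Lif*, whereas the highest *Il10*, 13.7 CPM, is in DKO-severe 2 with 862 CPM.

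*Il10* and *Csf2* were scarcer and rose by less. In the order of replicate numbers, *Il10* had 0.919, 0.387, 1.61, and 1.94 CPM in WT mice, then 2.39, 4.6, 2.38, and 1.67 CPM in DKO-moderate mice, then 3.15, 13.7, 2.36, and 3.64 CPM in DKO-severe mice. DKO-severe did not overlap WT, but 1 library, DKO-severe 2, was far above the rest of its group. *Il10* rose in DKO-severe against WT with a log2 fold change of 2.23 (SE 0.63, edgeR adjusted p = 0.0108). Without DKO-severe 2 the change was 1.34 (edgeR adjusted p = 0.0427), and without DKO-severe 1 and 2 it was 1.32 (edgeR adjusted p = 0.086). With terms for neutrophil and B cell genes it was 0.86 (edgeR adjusted p = 0.579). All 12 neutrophil genes were themselves called higher in DKO-severe against WT (median log2 fold change 9.58). These terms therefore overlap with the group, and the model cannot fully separate the 2. DKO-severe 2 also had the highest sums of B cell genes, 383 CPM, of monocyte and macrophage genes, 568 CPM, and of CD8 T cell and NK cell genes, 114 CPM. The change of *Il10* in DKO-moderate, 1.18 (SE 0.62, edgeR adjusted p = 0.208), did not pass.

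*Csf2*, which encodes GM-CSF, stayed under 2 CPM in every library. WT 1 to 4 held 0.488, 0.484, 0.115, and 0.301 CPM (4 to 17 reads per library), DKO-moderate 1 to 4 held 0.665, 1.01, 0.422, and 1.35 CPM, and DKO-severe 1 to 4 held 1.59, 0.335, 1.79, and 1.82 CPM. The other 3 DKO-severe libraries were above all others in the series, and DKO-severe 2, with 11 reads, lay within the WT range. The log2 fold change was 1.99 (SE 0.59, edgeR adjusted p = 0.0142) in DKO-severe and 1.31 (SE 0.59, edgeR adjusted p = 0.148) in DKO-moderate. Without DKO-severe 1 and 2 the change in DKO-severe was 2.40 (edgeR adjusted p = 0.00649). DKO-severe 2 was thus the highest library of its group for *Il10* and the lowest for *Csf2*.

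*Il2* moved little. Its levels in WT 1 to 4 were 1.01, 1.94, 1.84, and 1.83 CPM, those in DKO-moderate 1 to 4 were 3.27, 2.27, 3.13, and 3.47 CPM, and those in DKO-severe 1 to 4 were 3.5, 2.56, 2.05, and 2.25 CPM. All DKO libraries were above all WT libraries, by a small margin. The log2 fold change was 0.88 (SE 0.28, edgeR adjusted p = 0.0479) in DKO-moderate, which passed, and 0.65 (SE 0.28, edgeR adjusted p = 0.0668) in DKO-severe, which did not. The call in DKO-moderate was lost when any 1 of 10 of the 12 libraries was left out (0.70 without WT 1, edgeR adjusted p = 0.119), and the call in DKO-severe was gained with library size alone as the scale (0.83, edgeR adjusted p = 0.0235). Without DKO-severe 1 and 2 the change in DKO-severe was 0.41 (edgeR adjusted p = 0.324). *Tnf* was expressed in every group, and WT and DKO-moderate were nearly alike in range. The 4 values spanned 24.8 to 34.2 CPM in WT mice, 24.8 to 33.6 CPM in DKO-moderate mice, and 16.4 to 29.4 CPM in DKO-severe mice. The 3 ranges overlapped, with DKO-severe 3 and 4, at 16.4 and 18.2 CPM, below all other libraries. The log2 fold change was -0.01 (SE 0.19, edgeR adjusted p = 0.981) in DKO-moderate and -0.37 (SE 0.19, edgeR adjusted p = 0.111) in DKO-severe. *Tnf* passed as lower in DKO-severe without DKO-severe 1 (-0.53, edgeR adjusted p = 0.0313) and without DKO-severe 1 and 2 (-0.72, edgeR adjusted p = 0.00788). It also passed as lower with limma voom (-0.55, adjusted p = 0.0121) and, once neutrophil and B cell genes were terms of the model, in edgeR (-1.06, adjusted p = 0.0157). *Il3* was close to absent, with 3 reads in DKO-moderate 4, 1 read in DKO-severe 1, and 0 in the other 10 libraries, where a count of 0 allows up to 0.0973 CPM. It was below the filter and was not tested.

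Of the 7 genes tested, 5 rose in DKO-severe against WT and 0 fell (0 also at an unadjusted p under 0.05 in edgeR, 0 in DESeq2, and 1, *Tnf*, in limma voom), while 26.6% of all 16035 genes tested rose in this comparison. The median log2 fold change of the 7 was 2.23, against -0.01 over all genes. In DKO-moderate against WT 4 of 7 rose and 0 fell (0 also at an unadjusted p under 0.05 in edgeR, in DESeq2, and in limma voom), with a background of 12.3% higher, and the median was 1.31 against 0. Both comparisons used the same WT libraries and are not independent. The cytokine genes were chosen with earlier results of these data known, so the shares over all genes serve as a description only. *Csf2* passed the test in DKO-severe although its groups overlapped, and *Il2* in DKO-severe did not pass although its groups did not overlap. The DKO-severe libraries were entirely above WT for 5 members (24.6% of all genes), and the DKO-moderate libraries for 4 members (14.6% of all genes). In the exact permutation test on CPM, two-sided, these members had p = 0.029, the smallest that 4 libraries against 4 allow. Groups without overlap always give this value, so it restates the lack of overlap and adds no further test. Csf2 in DKO-severe had an exact permutation p = 0.086 in the same test.

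**Figure D3:**
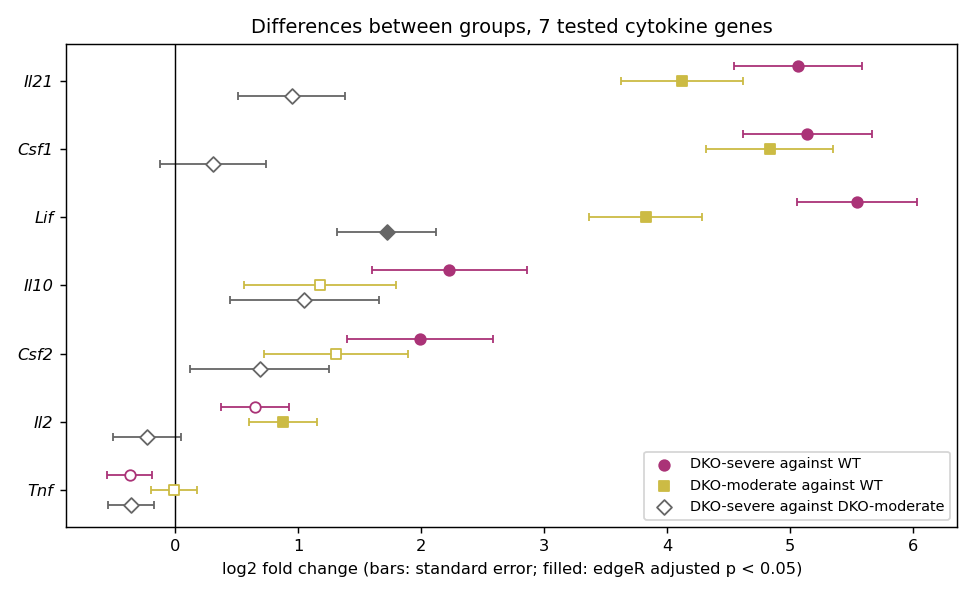
Log2 fold change of the 7 tested genes in the 3 comparisons between groups, with error bars of 1 standard error. Filled symbols passed an edgeR adjusted p of 0.05. *Il21*, *Csf1*, and *Lif* lie between 3.82 and 5.54 against WT, *Lif* alone passes between the DKO groups at 1.72, and *Tnf* lies between -0.37 and -0.01.

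DKO-severe was then compared with DKO-moderate to learn which cytokine transcripts differ with severity at the same genotype. Only *Lif* passed the test, with a log2 fold change of 1.72 (SE 0.40, edgeR adjusted p = 0.0136), a 3.29-fold rise, against 9.41% of all genes called higher and 10.7% lower. It was also the only member with no overlap between the DKO groups (9.77% of all genes). The other 6 did not pass. *Il21* was 0.95 higher (SE 0.44, edgeR adjusted p = 0.136), and DKO-moderate 2 lay above DKO-severe 1. The log2 differences of *Csf1*, *Il10*, and *Csf2* were 0.31 (SE 0.43), 1.05 (SE 0.61), and 0.68 (SE 0.56), with edgeR adjusted p of 0.635, 0.226, and 0.399. Those of *Tnf* and *Il2* were -0.36 (SE 0.19) and -0.23 (SE 0.27), with edgeR adjusted p of 0.177 and 0.568. The standard errors leave room for differences of a factor of 2 or more in *Il21*, *Il10*, *Csf1*, and *Csf2*. Without DKO-severe 1 and 2 the change in *Lif* was 1.999 (edgeR adjusted p = 0.0217), and *Tnf* passed as lower (-0.70, edgeR adjusted p = 0.0271). With terms for neutrophil and B cell genes *Lif* was 1.69 higher and did not pass (edgeR adjusted p = 0.155). That model called 162 of all 16035 genes between the DKO groups, against 3217 in the main model.

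Levels of different genes were set side by side per kilobase of exon. In WT the order was *Tnf* at 17.7 ± 2.52 CPM per kb, then *Il21* at 1.58 ± 1.09, *Il2* at 1.44 ± 0.38, *Il10* at 0.927 ± 0.532, *Csf1* at 0.842 ± 0.452, *Lif* at 0.438 ± 0.11, and *Csf2* at 0.434 ± 0.222, with *Il3* at 0 (mean ± SD, n = 4). *Tnf* was above all others in each WT library, and the neighbours below it overlapped. In DKO-severe the order was *Il21* at 53 ± 8, *Csf1* at 29.8 ± 9.05, *Lif* at 20.4 ± 5.38, *Tnf* at 13.7 ± 3.75, *Il10* at 4.37 ± 4.1, *Il2* at 2.26 ± 0.564, and *Csf2* at 1.73 ± 0.882 CPM per kb. The ranges of *Il21* and *Csf1* did not overlap in DKO-severe, whereas each later pair of neighbours in this order had overlapping ranges. Within every single DKO-severe library, *Csf1* was still above *Lif* and *Tnf* above *Il10*. In DKO-moderate *Il21* (27.5 ± 14.4), *Csf1* (24.1 ± 13.5), and *Tnf* (17.5 ± 2.65) overlapped. They were followed by *Lif* at 6.2 ± 4.46, *Il2* at 2.65 ± 0.462, *Il10* at 2.11 ± 0.972, and *Csf2* at 1.08 ± 0.507 CPM per kb. *Lif* lay below *Tnf* in all 4 DKO-moderate libraries. *Il2* did not overlap *Lif*, with its highest value at 3.03 and the lowest of *Lif* at 3.04 CPM per kb, in different libraries. *Il10* overlapped both *Il2* and *Csf2*. The 8 genes summed to 23.3 ± 4.24 CPM per kb in WT mice, to 81.2 ± 32.8 in DKO-moderate mice, and to 125.2 ± 14.7 in DKO-severe mice.

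The make-up of this sum changed with the groups. *Tnf* made up 76.2% ± 5.08 of it in WT mice, 24.5% ± 11.2 with moderate disease, and 11.2% ± 3.81 with severe disease (SD, n = 4). *Il21* made up 6.4% ± 3.16, 32.4% ± 6.27, and 42.4% ± 4.56, and *Lif* 1.89% ± 0.429, 7.1% ± 2.37, and 16.1% ± 3.3. *Csf1* had its largest share in DKO-moderate, 28% ± 7.44, against 3.49% ± 1.37 in WT and 23.5% ± 4.7 in DKO-severe, and the DKO groups overlapped. Against WT, the share of *Il21* was 36 percentage points larger in DKO-severe and 26 points larger in DKO-moderate (p = 0.029 in both by a two-sided exact permutation test, the smallest possible with 4 against 4). This p restates that the shares did not overlap. The shares use the same *Il21* reads as the levels above, so it adds no further test. Between DKO-severe and DKO-moderate it differed by 9.98 points (exact permutation test, two-sided, p = 0.057). The depth covers counting error only, and the exon lengths sum all annotated exons, so the transcript forms present could shift these shares.

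**Figure D4:**
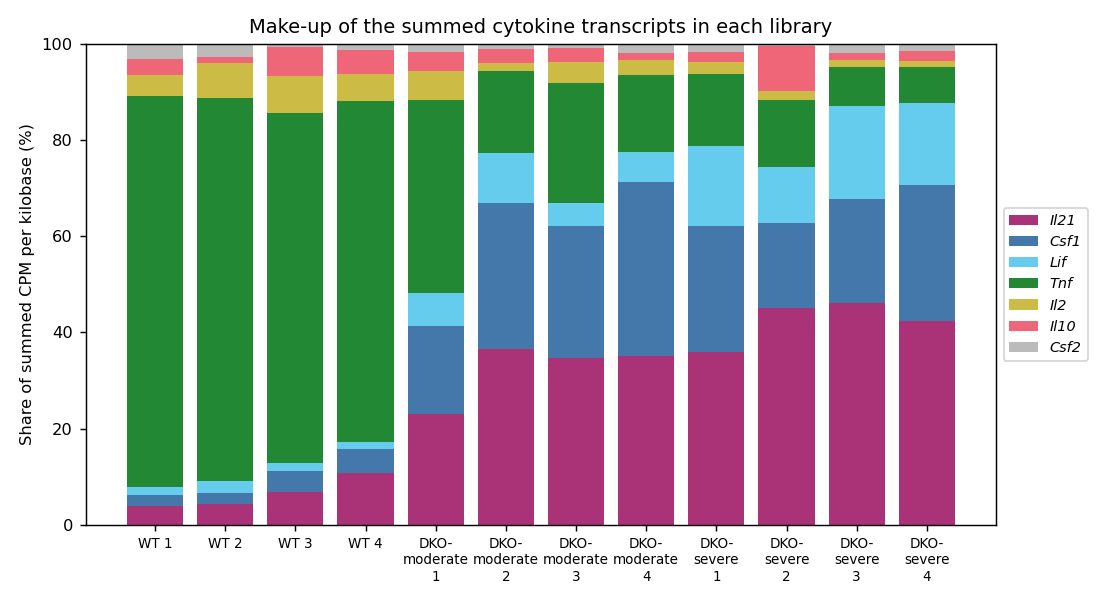
Share of each gene in the summed level of the cytokine genes (percent of CPM per kilobase of exon) in each of the 12 libraries. *Il3*, at 0.134% or less, is not drawn. *Tnf* takes 70.9% or more in every WT library and 40.2% or less in every DKO library, while *Il21* takes 10.8% or less in WT and 23.1% or more in DKO libraries.

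Neighbouring genes showed different changes. The ratio of *Il21* to *Il2* reads had a median of 4.06 in WT mice (2.63 to 9.09), 43.3 in DKO-moderate mice (17.6 to 102.4), and 124 in DKO-severe mice (64.9 to 145). The ratio of *Lif* to *Osm* reads had a median of 0.065 in WT mice (0.0453 to 0.101), 0.865 in DKO-moderate mice (0.589 to 3.44), and 6.6 in DKO-severe mice (3.4 to 8.93). *Osm* fell in DKO-severe against WT by 0.94 on the log2 scale (edgeR adjusted p = 0.00082), in the opposite direction to *Lif*. *Lta* and *Ltb*, which flank *Tnf* and encode the subunits of lymphotoxin, fell by 0.65 and 1.27 on the log2 scale (edgeR adjusted p of 0.0345 and 2.69e-05), and the call for *Lta* was lost when any 1 of 5 libraries was left out (WT 2, WT 4, or DKO-severe 2, 3, or 4). *Csf2* rose in DKO-severe, while *Il3* beside it stayed at 0 in 10 of the 12 libraries.

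The receptors of these cytokines were measured in the same cells. Of 15 receptor genes 6 rose and 3 fell in DKO-severe against WT, against 26.6% of all genes higher and 25.9% lower. The median log2 fold change of the 15 was 1.58, against -0.01 over all genes. The number that rose was 10 without WT 3, and also 10 with limma voom. *Il2ra*, the high-affinity chain of the IL-2 receptor, rose from 11.8 to 97 mean CPM (log2 fold change 3.04, edgeR adjusted p = 7.13e-06). *Il2rb* rose by 1.82 and *Tnfrsf1b*, the second TNF receptor, by 2.01 on the log2 scale (highest edgeR adjusted p = 2.25e-05). *Il10ra* (1.58), *Il3ra* (1.71), and *Csf2ra* (1.11) also rose, and *Csf2ra* lost its call without DKO-severe 1 and 2 (0.81, edgeR adjusted p = 0.077). *Tnfrsf1a*, the first TNF receptor, fell by 1.2, *Il6st*, the signalling chain shared by LIF and the IL-6 family, by 0.91, and *Il2rg*, the chain shared by IL-2 and IL-21, by 0.43. *Il21r* was abundant in all groups, at 207 CPM in WT, 223 CPM in DKO-moderate, and 193 CPM in DKO-severe, and did not pass (log2 fold change -0.10, edgeR adjusted p = 0.353). *Lifr* and *Csf1r*, which myeloid and stromal cells use, spanned 0.119 to 3.84 and 13.1 to 40.9 CPM in DKO-severe and did not pass, with log2 fold changes of 1.74 and 1.27. Without WT 3, the WT library with the highest sum of monocyte and macrophage genes, the changes were 5.96 and 4.14 and both passed. In DKO-moderate against WT 5 of the 15 rose and 1 fell, against 12.3% of all genes higher and 4.74% lower. *Il2ra* (1.60) and *Il2rb* (1.43) were among the rises, and *Tnfrsf1a* was the fall, by 0.60.

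Among 24 other cytokine genes, 22 were tested. Of these, 10 rose and 4 fell in DKO-severe, against 26.6% of all genes higher and 25.9% lower. The median of the 22 was 1.48, against -0.01 over all genes. The number that fell was 2 without WT 4, DKO-severe 3, or DKO-severe 4. *Il17a*, *Il13*, and *Il17f* had the largest rises among those with at least 1 CPM, 5.51, 4.28, and 3.33 on the log2 scale, but each was scattered. *Il17a* ranged from 0.122 to 60.4 CPM, *Il13* from 0.286 to 18.9 CPM, and *Il17f* from 0.0609 to 8.24 CPM over the DKO-severe libraries, so each overlapped WT. *Il13* lost its call without DKO-severe 1 (2.07, edgeR adjusted p = 0.113) and without DKO-severe 1 and 2 (1.11, edgeR adjusted p = 0.436), and the change in *Il17a* was 2.96 without DKO-severe 3 (edgeR adjusted p = 0.0287). *Ifng*, the Th1 cytokine, was at 23, 23.5, and 13.3 mean CPM in WT, DKO-moderate, and DKO-severe and did not pass (edgeR adjusted p = 0.104 in DKO-severe), except as lower in DKO-severe without DKO-severe 2 (-1.09). By contrast, every library of both DKO groups lay above WT for *Tnfsf8* (2.61 in DKO-severe), *Tnfsf11* (1.88), *Tnfsf14* (1.65), and *Il4* (1.32), which were named after their values were seen.

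Genes known to regulate cytokine transcription moved in both directions, as did all genes. Of 28, 11 rose and 8 fell in DKO-severe, against 26.6% of all genes higher and 25.9% lower. The median of the 28 was 0.24, against -0.01 over all genes. *Bhlhe40*, *Maf*, and *Irf4*, factors used by effector and follicular helper cells, rose by 3.82, 3.37, and 3.06, and each also rose in DKO-moderate, by 2.13, 2.42, and 1.87. *Jun*, *Junb*, and *Fosb*, subunits of AP-1, fell by 3.12, 1.92, and 1.78 on the log2 scale in DKO-severe. *Fosb* lost its call when any 1 of 7 libraries was left out and without DKO-severe 1 and 2 (-0.99). *Fos* fell as well, by 1.61, but AP-1 genes did not all fall. *Fosl2* and *Batf*, of the same family, rose by 1.56 and 1.73 (highest edgeR adjusted p = 0.00013). Among NFAT genes *Nfatc1* rose by 0.96 (edgeR adjusted p = 0.000139), whereas *Nfatc2* was at -0.01 (edgeR adjusted p = 0.977). Of 11 regulators of cytokine mRNA decay 3 rose and 5 fell, with a median of -0.33, against 26.6% of all genes higher and 25.9% lower. The number that fell was 3 without WT 2 or without DKO-severe 2. *Zfp36*, *Zfp36l1*, and *Zfp36l2*, which encode proteins that bind AU-rich elements and speed decay, fell by 1.5, 0.67, and 1.11. *Zc3h12d*, an RNase of the Regnase family, rose by 1.24, and *Khsrp* and *Elavl1* rose by 0.37 and 0.31. *Zc3h12a*, of the same family, fell by 0.39 (edgeR adjusted p = 0.0237). Its call was lost when any 1 of 4 libraries was left out.

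Of 14 genes induced by cytokine receptor signals 6 rose and 3 fell in DKO-severe, against 26.6% of all genes higher and 25.9% lower. The median of the 14 was 0.21, against -0.01 over all genes. *Gzmb*, the cytotoxic protease, rose by 5.03, *Il2ra* by 3.04, and *Pim2* by 1.56. *Pim1*, *Myc*, and *Socs1* fell by 0.92, 0.73, and 0.33, and *Socs1* lost its call when any 1 of 4 libraries was left out. In DKO-moderate 12.3% of all genes rose and 4.74% fell. Of the 14 genes, 6 rose and 0 fell there (2 at an unadjusted p under 0.05 in edgeR, 2 in DESeq2, and 0 in limma voom). The number that rose in DKO-moderate was 3 to 7 when 1 library was left out, with 3 without WT 1, and the number that fell was 0 to 2, with 2 without DKO-moderate 1. With terms for neutrophil and B cell genes the counts in DKO-severe were 4 higher and 1 lower among receptors, 4 and 2 among other cytokines, 10 and 0 among transcription regulators (4 lower at an unadjusted p under 0.05 in edgeR), 2 and 1 among decay regulators, and 4 and 0 among induced genes (1 lower at an unadjusted p under 0.05). Without DKO-severe 1 and 2 they were 5 and 3, 8 and 3, 11 and 7, 3 and 3, and 5 and 3. Calls over all 16035 genes fell as well, from 4270 higher and 4158 lower in the main model of DKO-severe against WT. They were 2175 and 882 once neutrophil and B cell genes were in the model, and 3646 and 3008 without DKO-severe 1 and 2. The smaller list counts thus came with fewer calls among all genes.

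**Figure D5:**
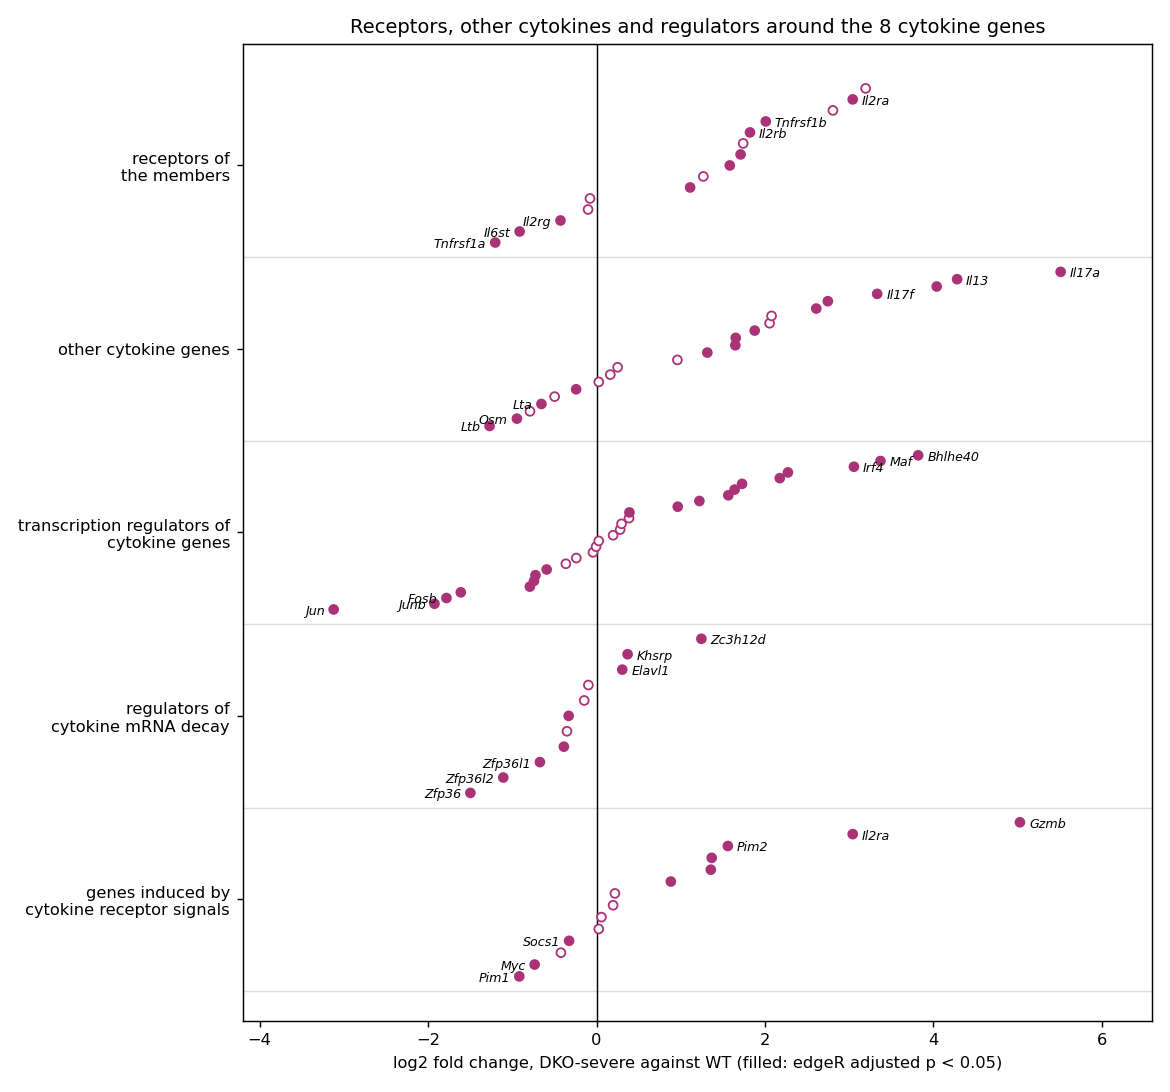
Log2 fold change of DKO-severe against WT for the tested genes of 5 lists around the cytokine genes, ordered by size within each list (the vertical position within a list has no other meaning). Filled points passed an edgeR adjusted p of 0.05. In each list genes lie on both sides of 0, from *Jun* at -3.12 to *Il17a* at 5.51.

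The genes whose levels followed each member most closely were ranked by the root mean square difference of log2 CPM, centred over the 12 libraries, among 9995 or 9996 genes with at least 5 CPM on average. *Il21* was followed by *Dab2ip* (0.31), *Cdh23* (0.36), and *Npas4* (0.38), a factor induced by calcium signals in neurons. *Csf1* was followed by *Il21* itself (0.39), *Angptl2* (0.44), and *Cdh23* (0.46). *Lif* was followed by *Card10* (0.38), *Zfp651* (0.39), and *Mctp1* (0.44). *Mctp1* went from 1.39 to 16.7 and 52.2 mean CPM over WT, DKO-moderate, and DKO-severe, in steps like those of *Lif* (1.9, 27, and 88.6 CPM). The spread of each of these 3 members over the libraries was 2.34 to 2.45 on the same scale. For *Il10* the nearest were *Sema7a* (0.56), *Entpd1* (0.57), which encodes CD39, and *Rgs16* (0.62), at a spread of 1.16, and for *Csf2* *Tmem180* (0.44), *Phldb1* (0.54), and *Fam92a* (0.55), at a spread of 1.05. For *Tnf* the nearest were *Slc2a3*, *Cbx7*, and *Il27ra* (0.17 to 0.20) and for *Il2* *Atp5g2*, *Lxn*, and *Cxcr3* (0.19 to 0.25), at spreads of only 0.31 and 0.48. All libraries share the 3 groups, so these distances describe likeness over groups and libraries together.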

How the data were processed

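RNA was measured in CD4+ YFP(FOXP3)- T cells in 12 libraries, 4 per group. The authors sequenced directional libraries as paired reads of 150 bp, aligned them to mm10 with STAR 2.7.11 keeping reads with a single position, and deposited raw counts per gene from htseq-count (reverse strand). The annotation is not given in the sources used here. The 5 closing rows of unassigned reads (18.5% to 23.7% of a library) were left out of library sizes. Genes with at least 10 reads summed over a group in at least 1 group were tested (16035 of 26608) with edgeR 4.0.16 (quasi-likelihood F test, TMM scaling, all 12 libraries, group as the only term, Benjamini-Hochberg adjustment over all genes tested, threshold 0.05). The authors used DESeq2, which was run here as an alternative (1.42.0), as was limma voom with sample quality weights (3.58.1). The other alternatives were DESeq2 size factors, library size alone, no filter, filterByExpr, only the groups compared, a replicate block, a term for Y-linked genes, terms for neutrophil and B cell genes, and leaving out each library. Leaving out DKO-severe 1 and 2 together was added after seeing the data. The script was tested on simulated data with known changes.

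Mouse numbers do not mark a litter or a day in the labels, and correlations of residuals between same-numbered libraries (median -0.0342, -0.272 to 0.208) lay within the range for differently numbered ones (-0.318 to 0.303), so numbers were not treated as pairs. Libraries of a group were not copies of each other (chi-square per degree of freedom at least 21.6). Coordinates and exon lengths (the union of all exons of a gene) come from GENCODE M21, promoter windows from RefSeq. The log2 CPM used for likeness had a prior count of 2. Single values and shares were compared with exact permutation tests in scipy 1.17.1. The cytokine genes and all lists were chosen with earlier results of these data known. Named from each list were up to 3 of the largest rises and 3 of the largest falls in DKO-severe against WT among genes past the threshold with at least 1 CPM in the higher group, and for each member the 3 most alike genes with at least 5 CPM. Receptors could all be named, and other list genes were named after their values were seen. Of the CD4 T cell list, 7 of 10 names were matched. Depth intervals cover counting error only.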

Additional observations from a re-analysis of the deposited data

Results flagged for a closer look

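In 3 of 21 sets of 4 libraries (7 genes in 3 groups) a single library lay far from the other 3, where chance flags about 1 in 20. *Il10* in DKO-severe 2 was at 13.7 CPM, and the nearest library of its group was at 3.64 CPM. *Csf2* in the same library was the lowest of its group at 0.335 CPM, with the nearest at 1.59 CPM. *Il2* in WT 1 was the lowest of its group at 1.01 CPM, with the nearest at 1.83 CPM.

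The change in *Lif* against WT differed between the DKO groups. It was 1.72 larger on the log2 scale in DKO-severe than in DKO-moderate (edgeR adjusted p = 0.0136), higher than every DKO-moderate library in 4 of 4 DKO-severe libraries.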

How the results depend on the processing

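The rises of *Il21*, *Csf1*, and *Lif* against WT in both DKO groups and of *Csf2* in DKO-severe kept their direction and passed the test under all 22 alternatives listed above, the 12 libraries left out included. The count of members called in DKO-severe against WT was 5 to 6 and that in DKO-moderate against WT 3 to 4 over them. In DKO-severe, 1 of those called, *Tnf*, was lower with terms for neutrophil and B cell genes (4 higher, 1 lower) and with limma voom (5 higher, 1 lower), and likewise without DKO-severe 1 and without DKO-severe 1 and 2. Between DKO-severe and DKO-moderate, 1 member was called, 3 with limma voom (*Il21*, *Lif*, and *Tnf*), 0 in edgeR once terms for neutrophil and B cell genes were in the model (2, *Lif* and *Tnf*, at an unadjusted p under 0.05 there, and 1 in DESeq2), and 2 without DKO-severe 1 and 2. The model with terms for neutrophil and B cell genes called 162 of all 16035 genes between the DKO groups, against 3217 in the main model. *Il10* between the DKO groups changed sign to -0.25 with these terms. *Tnf* in DKO-moderate, -0.01, changed sign to 0.0701 with library size alone and to 0.0118 with the term for Y-linked genes, and ranged from -0.0944 to 0.0780 when 1 library was left out (0.00895 without WT 2, 0.0780 without WT 4, 0.0432 without DKO-moderate 3, 0.0503 without DKO-moderate 4). The share of *Il21* in DKO-severe against WT was 34.7 to 38.1 points higher when 1 library was left out, and in DKO-moderate 24.6 to 29.1 points. With 3 libraries against 4 the exact permutation test cannot go below p = 0.057. Library size alone moved the median of all genes in DKO-severe against WT to 0.18, with 5460 genes higher and 2756 lower against 4270 and 4158 under TMM. Between the DKO groups it gave 1886 higher and 1021 lower against 1509 and 1708, and DESeq2 size factors gave 1823 and 1237. The causes were not tested.

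With the replicate block, *Il2* in DKO-moderate lost its call (0.87, edgeR adjusted p = 0.105), and it changed no other call of the members. All members called were 5, 3, and 1 in the 3 comparisons under the block. Depth limits *Il3* and *Csf2*, with at most 3 and 76 reads in a library.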
